A study of Mus musculus with 3 samples.

Results

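The small leucine-rich proteoglycans described here are 10 genes chosen by symbol from the deposited table of 44788 gene symbols: Dcn, Bgn, Fmod, Lum, Prelp, Epyc, Omd, Ogn, Aspn and Chad, the last a related leucine-rich repeat protein of cartilage. Their RNA was counted in primary chondrocytes taken from cartilage of the knee joints of C57BL/6 mice. The cKO group (2 libraries) carried Col2a1-CreERT2 and floxed Kdm6b alleles, written Col2a1-CreERT2;Kdm6bf/f, and the control group (1 library) carried the floxed alleles without the recombinase, written Kdm6bf/f. Cells of both groups grew in F12 medium with 10% fetal bovine serum and were exposed to 4-hydroxytamoxifen at 1 µM for 48 h, which switches on CreERT2, a drug-dependent form of the Cre recombinase. The control therefore shares the drug and the floxed alleles but not the recombinase, and the Col2a1 promoter limits recombination to cells that use it. The comparison asks which transcripts differ in cells set up to lose Kdm6b, a demethylase of lysine 27 on histone H3.

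Small leucine-rich proteoglycans are secreted proteins whose curved leucine-rich repeat core binds collagen. Many carry chondroitin, dermatan or keratan sulfate chains. In cartilage they coat collagen fibrils, influence fibril thickness and spacing, and bind growth factors such as TGF-beta. Class I holds decorin, biglycan and asporin. Class II holds fibromodulin, lumican, PRELP and osteomodulin (Omd), and class III holds epiphycan and osteoglycin. Chondroadherin (Chad) is placed in a further, non-canonical class and is a ligand of integrins on chondrocytes.

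Most of the genes sit in clusters of relatives, so the bases before the transcript start are shown for the 3 members of the chromosome 13 cluster that fell together (Aspn, Omd and Ogn), for Prelp and Fmod, neighbours on chromosome 1 of which only Prelp passed the test, and for Epyc of the chromosome 10 cluster. The sequences are from RefSeq on GRCm38.p6, which held an entry for 8 of the 10 genes, the exceptions being Dcn and Lum. Each runs 5′ to 3′ on the gene's strand over the 250 bases before the start (237 for Prelp, where GENCODE places the gene's start further out). Capitals mark ACAAT, the core of the sequence bound by SOX factors, and TATAAA, the TATA box, on either strand.
Aspn, chr13:49544193-49544442, plus strand: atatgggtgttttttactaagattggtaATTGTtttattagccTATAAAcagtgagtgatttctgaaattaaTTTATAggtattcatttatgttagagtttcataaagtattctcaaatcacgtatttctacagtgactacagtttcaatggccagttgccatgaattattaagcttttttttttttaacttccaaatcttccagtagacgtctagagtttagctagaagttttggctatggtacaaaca
Omd, chr13:49582212-49582461, plus strand: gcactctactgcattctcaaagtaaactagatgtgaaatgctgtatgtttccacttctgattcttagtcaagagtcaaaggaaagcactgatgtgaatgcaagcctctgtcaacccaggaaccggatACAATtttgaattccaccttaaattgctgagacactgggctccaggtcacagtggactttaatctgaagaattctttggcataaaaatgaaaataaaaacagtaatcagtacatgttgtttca
Ogn, chr13:49607765-49608014, plus strand: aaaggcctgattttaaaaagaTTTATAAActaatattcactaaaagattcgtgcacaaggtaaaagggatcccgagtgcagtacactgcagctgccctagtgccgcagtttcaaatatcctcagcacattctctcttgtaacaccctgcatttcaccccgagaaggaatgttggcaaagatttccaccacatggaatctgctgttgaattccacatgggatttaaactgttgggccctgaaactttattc
Prelp, chr1:133921415-133921651, minus strand: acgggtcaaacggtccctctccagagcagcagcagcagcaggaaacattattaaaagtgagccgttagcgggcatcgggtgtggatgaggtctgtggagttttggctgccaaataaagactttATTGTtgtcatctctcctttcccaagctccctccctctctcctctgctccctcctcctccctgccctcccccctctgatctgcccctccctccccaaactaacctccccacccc
Fmod, chr1:134037004-134037253, plus strand: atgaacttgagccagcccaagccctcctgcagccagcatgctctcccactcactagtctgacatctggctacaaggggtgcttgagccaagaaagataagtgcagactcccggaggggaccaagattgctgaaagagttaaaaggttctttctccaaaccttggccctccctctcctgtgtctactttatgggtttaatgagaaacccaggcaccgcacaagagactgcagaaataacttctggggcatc
Epyc, chr10:97643818-97644067, plus strand: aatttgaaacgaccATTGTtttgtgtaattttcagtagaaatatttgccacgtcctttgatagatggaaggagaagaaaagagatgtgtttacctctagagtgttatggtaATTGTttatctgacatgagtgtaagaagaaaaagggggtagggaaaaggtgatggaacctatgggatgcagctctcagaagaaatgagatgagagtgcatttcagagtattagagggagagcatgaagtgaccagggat

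Epyc has another RefSeq window, chr10:97646853-97647102, not printed here, with 3 ACAAT matches and 31.2% G and C, which makes 9 windows for the 8 genes. This window lies inside the Epyc gene as GENCODE places it, at 97644068 to 97682454. ACAAT on either strand was present in 5 of the 9 windows, those of Aspn, Omd, Prelp and both of Epyc, and in 27.7% of 32817 promoter windows of the same length. By gene it was present in 4 of 8. TATAAA was present in Aspn, Ogn and Chad, 3 of 9, and in 12.4% of all windows. In Ogn its 2 matches overlap on opposite strands and lie far from the start, whereas in Chad the match begins 28 bases before it. GGGCGG, the GC box, was in Bgn and Chad, and in 32.7% of all windows. The core of the interferon-stimulated response element was in 0 of 9 and in 2.97% of all windows, and TGANTCA, the AP-1 site, was in 0 of 9 and in 6.75%. The Bgn window had 64.4% G and C and the Aspn window 30.0%, around a median of 52.4% over all windows. These are matches of letters, and a missing match says only that those letters are not in this window. Matching ACAAT lay before genes that fell and before the gene that rose.

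Column totals lay between 12489738 and 12636471 counts. Kdm6b was counted 1049 and 948 times in cKO cells against 1289 times in control cells, a difference of -0.39 ± 0.14 (SE) on the log2 scale that did not pass (adjusted p = 0.138 in edgeR). The sources used here do not say which exons are floxed, so a gene-level count does not measure their loss. The defining cartilage transcripts were abundant: Col2a1, the main cartilage collagen, lay at 12527 and 11984 CPM in cKO cells against 20116 CPM in control cells, and Acan, the aggrecan gene, at 995, 901 and 2400 CPM. CPM are counts scaled to a common library size with TMM factors. The cKO libraries differed in sex-linked RNA, with 2 Xist counts in cKO replicate 1 and 10081 in cKO replicate 2, against 1 in the control. The labels do not say that libraries come from separate animals or cultures, though Xist sets the 2 cKO libraries apart. With 1 control, the spread behind the p-values comes only from the 2 cKO libraries. In edgeR the spread of a gene is drawn mostly from the other genes (19.9 prior degrees of freedom against 1 residual). The test takes the single control to vary as the cKO libraries do.

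Of the 9 genes with ample counts in both groups, 6 fell in cKO, 1 rose and 2 did not pass the test. The genes that fell were Dcn, Lum, Epyc, Omd, Ogn and Aspn, and the gene that rose was Prelp. Chad had few counts and is described apart, with no call drawn from it. In these bulk samples fewer cells of a type and less RNA per cell cannot be told apart. A gene passed at a Benjamini-Hochberg adjusted p under 0.05 over all 15529 genes tested in edgeR's quasi-likelihood test, and over those genes 1.90% fell and 3.01% rose. Higher calls made up 61.3% of all calls, 71.8% with column totals in place of TMM and 73.2% in DESeq2. The median log2 fold change was -0.79 over the 9 genes and 0.00 over all genes tested. In 7 of the 9 both cKO libraries lay below the control, against 37.4% of all genes tested, and in 1 both lay above it, against 36.6%. Bgn, the most abundant, lay on either side of the control. These counts depend on how the spread is estimated: DESeq2 called 4 lower (Dcn, Lum, Epyc and Ogn) and 1 higher (Prelp), against 0.564% and 1.54% of the genes it tested. Using 3 prior degrees of freedom, and without a filter on low counts, edgeR called 0 in either direction, with 7 and 8 of the 9 at an unadjusted p under 0.05.

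**Figure D1:**
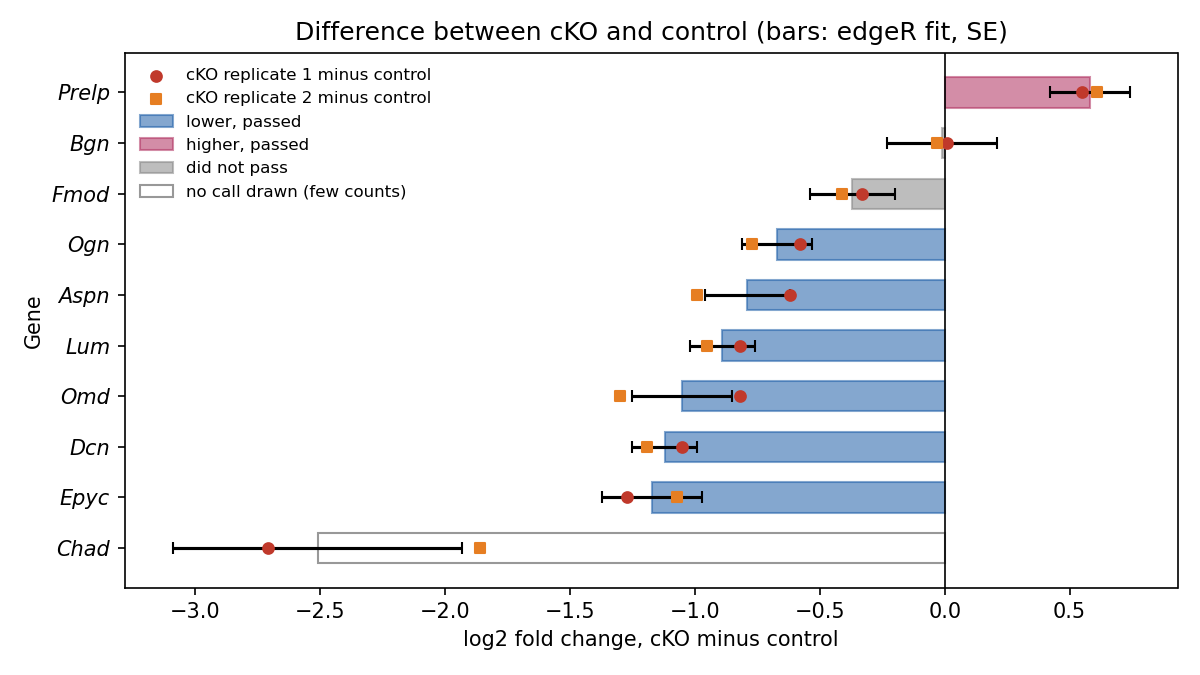
Log2 fold change of each gene between cKO and control. Bars are the edgeR estimate with its SE, coloured by the test at an adjusted p of 0.05 (the Chad bar is unfilled, since no call is drawn from it), and points are the difference of each cKO library from the control. Prelp is the gene to the right of 0 in both libraries, Bgn straddles 0, and the points of the other genes lie to the left of 0.

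Among class I genes, biglycan and decorin parted. Bgn, which carries chondroitin or dermatan sulfate chains and supports skeletal growth, was counted 53567 and 53441 times in cKO cells against 52888 times in control cells, or 4301, 4175 and 4263 CPM. Its libraries overlap, and the log2 fold change was -0.01 ± 0.22 (SE, adjusted p = 0.993 in edgeR). Counting error was small here. The ratio to the control was 1.01 (95% exact binomial interval 0.997 to 1.02) in cKO replicate 1 and 0.979 (0.968 to 0.991) in cKO replicate 2. Bgn lies on chromosome X, and the pair of cKO libraries that differ in Xist differed in Bgn by less than the SE of its fold change.

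Dcn, the decorin gene, whose product carries a single glycosaminoglycan chain and binds collagen fibrils and TGF-beta, was counted 2075 and 1928 times in cKO cells against 4279 times in control cells. That is 167 and 151 CPM against 345 CPM, and both cKO libraries lay far below the control. Dcn fell by 1.12 ± 0.13 on the log2 scale (SE, adjusted p = 4.04e-06 in edgeR), to 46.0% of the control level. It was the member with the smallest p. Within each library the ratio of Bgn to Dcn per kilobase of exon rose from 11.8 in the control to 24.7 and 26.5 in cKO, and this ratio does not depend on scaling between libraries.

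Aspn encodes asporin, which has a run of aspartates, lacks glycosaminoglycan chains and binds TGF-beta. It was counted 443 and 352 times in cKO cells against 678 times in control cells, or 35.6, 27.5 and 54.6 CPM. Both cKO values were below the control but they differed from each other more than those of Dcn did. The fall was 0.79 ± 0.17 on the log2 scale (SE, adjusted p = 0.00507 in edgeR), and in DESeq2 Aspn did not pass (adjusted p = 0.162).

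Class II held both directions. Fmod encodes fibromodulin, a keratan sulfate proteoglycan that binds the same region of collagen as lumican and promotes crosslinking. It was counted 15092 and 14658 times in cKO cells against 18913 times in control cells, or 1212, 1145 and 1524 CPM. Both cKO libraries were lower by a small amount, with a log2 difference of -0.37 ± 0.17 (SE), and Fmod did not pass (adjusted p = 0.268 in edgeR, unadjusted p = 0.0355).

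Lum, the lumican gene, was counted 2060 and 1938 times in cKO cells against 3635 times in control cells, or 165, 151 and 293 CPM. The cKO values lay close together and well below the control. Lum fell by 0.89 ± 0.13 on the log2 scale (SE, adjusted p = 0.000103 in edgeR), to 54.1% of the control level. The ratio of Fmod to Lum per kilobase of exon was 3.85 in the control and 5.42 and 5.60 in cKO.

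Prelp encodes a proline- and arginine-rich protein that binds heparan sulfate and collagen and is thought to anchor basement membranes to connective tissue. It was counted 13161 and 14057 times in cKO cells against 8943 times in control cells, or 1057, 1098 and 721 CPM. Both cKO libraries lay above the control, and their spread was small beside that gap. Prelp rose 1.49-fold (log2 0.58 ± 0.16 SE, adjusted p = 0.0395 in edgeR; 0.0193 in DESeq2). The call is near the threshold and was lost with RLE size factors (adjusted p = 0.0559 in edgeR) and with column totals (adjusted p = 0.0949 in edgeR). The ratio of Prelp to Fmod per kilobase of exon was 0.432 in the control and 0.798 and 0.877 in cKO, and that of Prelp to Lum was 1.67 against 4.33 and 4.91.

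Omd encodes osteomodulin, also called osteoadherin, a keratan sulfate proteoglycan first known from bone. It was counted 238 and 174 times in cKO cells against 419 times in control cells, or 19.1, 13.6 and 33.8 CPM. Both cKO libraries were lower, cKO replicate 2 more so. Omd fell by 1.05 ± 0.20 on the log2 scale (SE, adjusted p = 0.00203 in edgeR) and did not pass in DESeq2 (adjusted p = 0.0908).

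Both class III genes fell. Ogn encodes osteoglycin, also called mimecan, which affects collagen fibril growth, and was counted 5845 and 5269 times in cKO cells against 8694 times in control cells, or 469, 412 and 701 CPM. Ogn fell by 0.67 ± 0.14 on the log2 scale (SE, adjusted p = 0.00579 in edgeR). Epyc encodes epiphycan, a dermatan sulfate proteoglycan of growth plate cartilage, and was counted 143 and 170 times in cKO cells against 347 times in control cells, or 11.5, 13.3 and 28.0 CPM. Epyc fell by 1.17 ± 0.20 on the log2 scale (SE, adjusted p = 0.000524 in edgeR), to 44.3% of the control level. For Ogn and for Epyc both cKO libraries lay below the control.

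Chad, which encodes chondroadherin, was scarce. It was counted 4 and 9 times in cKO cells against 37 times in control cells, or 0.321, 0.703 and 2.98 CPM, and it entered the test only through its control count. Since that is the group where it is high, its log2 difference of -2.51 ± 0.58 (SE) is given as a description, and no call is drawn from it. In DESeq2 it did not pass (adjusted p = 0.607). The ratio to the control was 0.108 in cKO replicate 1 (95% exact binomial interval 0.02788 to 0.2998) and 0.236 in cKO replicate 2 (0.1001 to 0.4975). These intervals cover counting error only. Both cKO values lay below the control, and the SE was the widest among the 10 genes.

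**Figure D2:**
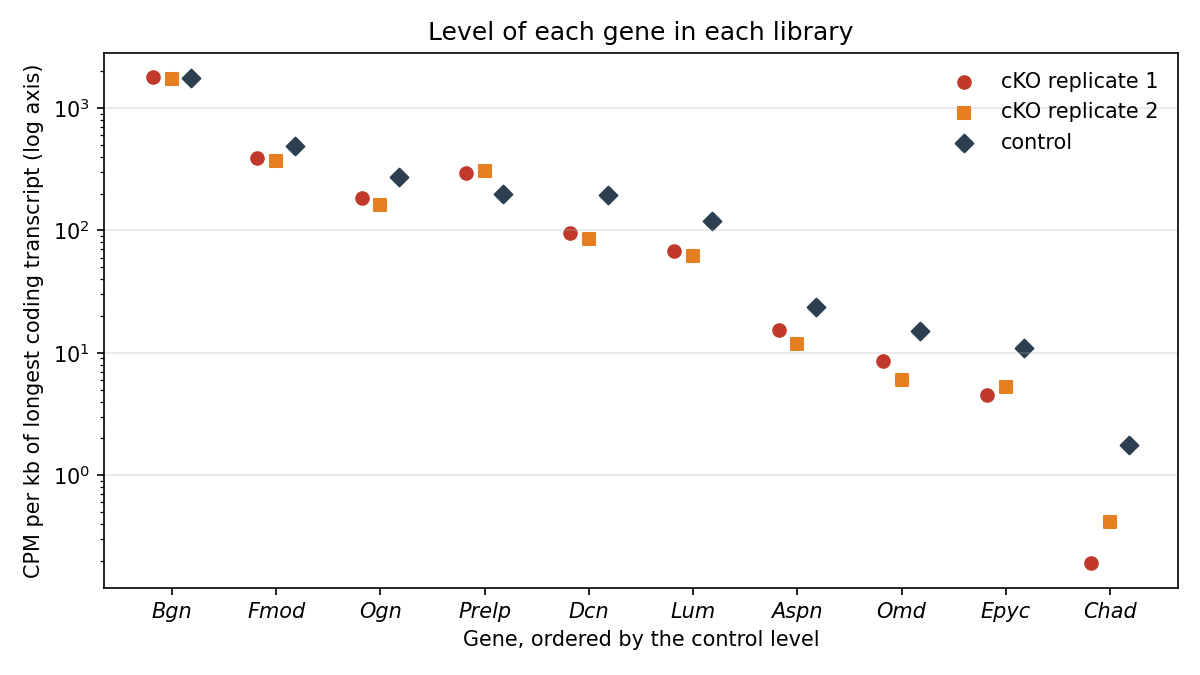
Level of each gene in each library, as CPM per kilobase of the longest protein-coding transcript, on a log axis. Genes are ordered by the control level, which runs from 1762 for Bgn to 1.78 for Chad, and in Prelp alone both cKO points lie above the control.

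Levels between genes were compared as CPM per kilobase of the longest protein-coding transcript and, since Bgn and Dcn have annotated retained introns, per kilobase of all exons as well. Per coding transcript, the order in the control was Bgn at 1762, Fmod at 489, Ogn at 273, Prelp at 199, Dcn at 196, Lum at 120, Aspn at 23.5, Omd at 15.0, Epyc at 11.0 and Chad at 1.78. Prelp and Dcn had nearly equal levels there, and with 1 control library their order has no replicate check. In cKO the order of means was Bgn at 1752 ± 36.7, Fmod at 378 ± 15.1, Prelp at 298 ± 8.14, Ogn at 172 ± 15.9, Dcn at 90.2 ± 6.42, Lum at 64.7 ± 4.04, Aspn at 13.5 ± 2.45, Omd at 7.27 ± 1.73, Epyc at 4.88 ± 0.502 and Chad at 0.305 ± 0.161 (SD, n = 2 each). Prelp had rank 4 in the control and rank 3 in both cKO libraries, above Ogn. In cKO all 9 neighbouring pairs differed by more than the sum of their SDs, the closest being Omd and Epyc. Per kilobase of all exons the order was the same except that Lum stood above Dcn, at 120 against 59.1 in the control.

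The summed level differed little between libraries, and its makeup differed more. The summed level of the 10 genes was 7437 and 7188 CPM in cKO cells against 7966 CPM in control cells, or 0.736%, 0.728% and 0.791% of all counts. Bgn dominates this sum. Without it the other 9 genes came to 3136, 3012 and 3703 CPM. Of the length-scaled pool (all exons), Bgn made up 42.2% and 42.6% in cKO and 37.5% in the control, and Prelp 17.5% and 18.9% against 10.7%. The share of Ogn was 10.9% and 9.99% against 14.7%, that of Lum 4.04% and 3.85% against 6.43%, and that of Dcn 1.71% and 1.61% against 3.17%. The levels of these shares depend on the length used. Per kilobase of the longest coding transcript, Prelp made up 10.3% and 11.1% against 6.45%, Ogn 6.46% and 5.88% against 8.84%, Lum 2.39% and 2.27% against 3.87%, and Dcn 3.35% and 3.14% against 6.35%. Dcn then exceeds Lum, and each share lies on the same side of the control as before. The cKO libraries resembled each other in each of these shares more than either resembled the control. With 1 control library no test was made of the shares.

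**Figure D3:**
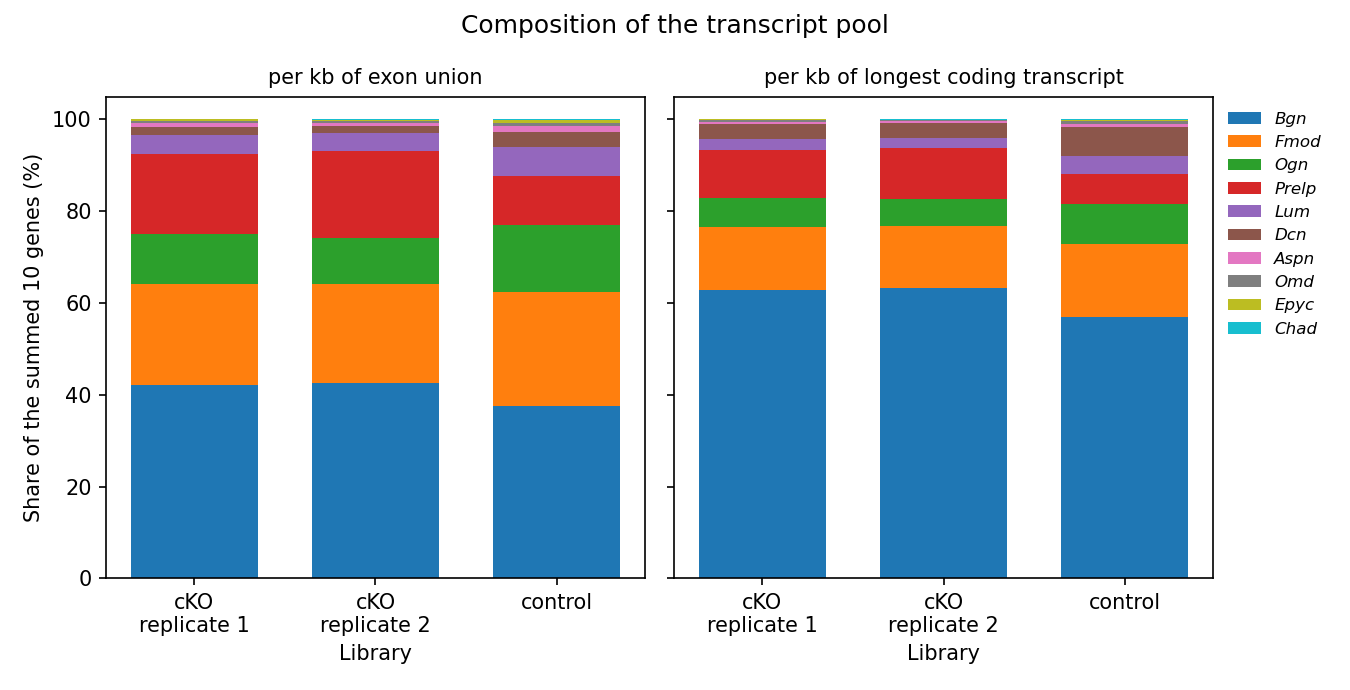
Share of each gene in the summed length-scaled level of the 10 genes, in each library, scaled per kilobase of all exons (left) and per kilobase of the longest protein-coding transcript (right). With either scaling the Prelp and Bgn segments are larger in both cKO libraries than in the control, and the Ogn, Lum and Dcn segments are smaller.

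Levels were also set beside Col2a1, whose own difference of -0.71 ± 0.33 on the log2 scale (SE) did not pass (adjusted p = 0.283 in edgeR). Per kilobase of exon, Bgn came to 32.1% of Col2a1 in the control and to 52.0% and 52.8% in cKO. Prelp came to 9.16% in the control and 21.6% and 23.4% in cKO, and Fmod to 21.2% against 27.0% and 26.7%. Dcn, at 2.71% in the control, came to 2.11% and 1.99% in cKO, and Lum to 5.50% against 4.99% and 4.77%. Per kilobase of the longest coding transcript the levels and the order of Dcn and Lum changed. Dcn then came to 4.98% of Col2a1 in the control and 3.86% and 3.65% in cKO, Lum to 3.04% against 2.75% and 2.63%, Prelp to 5.06% against 11.9% and 12.9%, Fmod to 12.4% against 15.8% and 15.6%, and Bgn to 44.7% against 72.4% and 73.5%. Relative to this collagen, then, Bgn, Fmod and Prelp had higher values in cKO, and Dcn and Lum had lower values, with either length. Bgn and Fmod themselves differed from the control by -0.01 and -0.37 on the log2 scale, so their higher ratios come from the lower Col2a1 level. The other members were not set beside Col2a1, and these ratios carry no test.

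Of the 10 genes, 8 lie in 3 clusters, here given by GENCODE M21 on GRCm38. On chromosome 10 (97479609 to 97682454), Dcn, Lum, Kera and Epyc are the only protein-coding genes in 202.8 kb. Dcn spans 97479609 to 97518143, Lum 97565128 to 97572703 and Epyc 97644068 to 97682454, all on the plus strand. The summed level of Dcn, Lum and Epyc there was 343 and 315 CPM in cKO cells against 666 CPM in control cells, and all 3 fell. Kera, which encodes the corneal proteoglycan keratocan, lies between Lum and Epyc and had 3, 0 and 0 counts. A count of 0 allows up to 3 counts, so no difference in Kera could be seen at this depth.

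On chromosome 13 (49504810 to 49624501), Ecm2, Aspn, Omd and Ogn overlap Cenpp, which is on the opposite strand and encodes a centromere protein. Aspn spans 49544443 to 49567565, Omd 49582462 to 49592822 and Ogn 49608046 to 49624501, all on the plus strand. The summed level of Aspn, Omd and Ogn was 524 and 453 CPM in cKO cells against 789 CPM in control cells, and all 3 fell. Ecm2, an extracellular matrix protein of related structure, was counted 49 and 55 times in cKO cells against 84 times in control cells, a log2 difference of -0.72 ± 0.32 (SE) that did not pass (adjusted p = 0.270 in edgeR). Cenpp itself had 45 and 56 counts against 70 (log2 fold change -0.50 ± 0.34 SE, adjusted p = 0.538 in edgeR). Whether counting used strand is not given in the sources used here. Aspn shares 7 exon bases with Cenpp and Omd and Ogn share 0, and Cenpp had fewer counts than any of the 3.

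On chromosome 1 (133897199 to 134048277), Optc, Prelp and Fmod are the only protein-coding genes in 151.1 kb, with Optc and Prelp on the minus strand and Fmod on the plus strand. Prelp spans 133910304 to 133921414 and Fmod 134037254 to 134048277. Here the summed level of Prelp and Fmod was 2268 and 2244 CPM in cKO cells against 2245 CPM in control cells, since the higher level of Prelp was offset by the lower level of Fmod. Optc, which encodes opticin of the eye, was counted 4 and 11 times in cKO cells against 3 times in control cells. Its ratio to the control was 1.33 (95% exact binomial interval 0.225 to 9.07) and 3.55 (0.939 to 19.8), and it did not pass (adjusted p = 0.644 in edgeR). An antisense gene, Gm15851, shares 350 of the 3615 exon bases of Prelp, and the long noncoding gene Gm10754, at 0 counts in each library, shares 1041 of the 2561 exon bases of Epyc, so without strand their reads could not be told apart. Bgn (chromosome X, 73483602 to 73495933) and Chad (chromosome 11, 94565047 to 94569127, opposite to Acsf2 with no shared exon bases) lie outside these clusters.

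**Figure D4:**
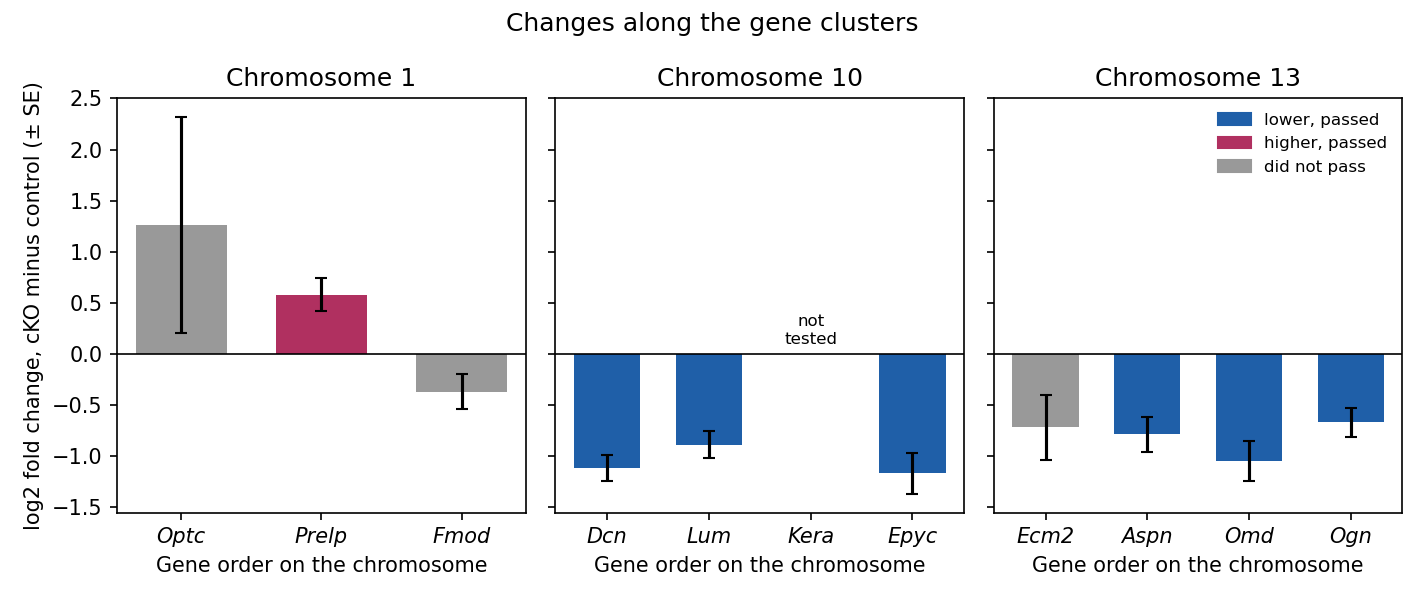
Log2 fold change (± SE, edgeR) of the clustered genes in their order on each chromosome. The tested genes of chromosomes 10 and 13 lie below 0, Ecm2 without passing, while on chromosome 1 Prelp is above 0 and Fmod below it. Optc rests on 3 to 11 counts a library.

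Relatives outside the set were read from a further list of 10 small leucine-rich repeat genes, of which 7 had enough counts to be tested. Of these 7, 3 fell and 4 did not pass, with a median log2 fold change of -0.59, and DESeq2 called 1 lower. Over all genes tested, edgeR called 1.90% lower and DESeq2 0.564%. Lrrc17, a secreted leucine-rich repeat protein that limits osteoclast formation, was counted 162 and 160 times in cKO cells against 398 times in control cells and fell by 1.33 ± 0.19 on the log2 scale (SE, adjusted p = 6.16e-05 in edgeR). It shares 161 of its 3608 exon bases with Fbxl13 on the opposite strand. Chadl, a chondroadherin-like matrix protein, had 56 and 64 counts against 131 and fell by 1.15 ± 0.28 (SE, adjusted p = 0.0176 in edgeR). Chadl shares 1023 exon bases with L3mbtl2 on the opposite strand, so its value is uncertain. Podn, podocan of class V, had 714 and 567 counts against 950 and fell by 0.59 ± 0.16 (SE, adjusted p = 0.0310 in edgeR).

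The relatives that did not pass besides Ecm2 and Optc were Tsku and Podnl1. Tsku, which encodes the secreted signalling modulator tsukushi, was counted 886 and 1055 times in cKO cells against 734 times in control cells, with a log2 difference of 0.38 ± 0.15 (SE, adjusted p = 0.198 in edgeR). Podnl1 had 38 and 39 counts against 38. Nyx had 3, 1 and 2 counts, and Nepn had 0 in each library, which allows up to 3 counts in each.

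The enzymes that build the chains of these proteins changed in part. Of 21 tested linker, chondroitin and dermatan sulfate genes, 3 fell, against 1.90% of all genes tested, and 18 did not pass (median -0.21). DESeq2 called 2 of them lower, edgeR with column totals or with the CPM filter 1, and edgeR without a filter or with 3 prior degrees of freedom 0, where this list and the other pathway lists lost their calls. Chst11, which sulfates chondroitin at position 4, fell by 0.74 ± 0.13 on the log2 scale (SE, adjusted p = 0.000956 in edgeR). Csgalnact1 and Chsy3, which start and extend chondroitin chains, fell by 0.71 ± 0.14 and 0.86 ± 0.22. Chsy1, another chain-extending enzyme, had a difference of -0.37 ± 0.13 (SE, adjusted p = 0.142 in edgeR).

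Genes of sulfate supply were among those that fell. Of 13 tested genes for keratan sulfate, tyrosine sulfation and sulfate supply, 3 fell, 1 rose and 9 did not pass (median 0.01). Over all genes tested, 1.90% fell and 3.01% rose. DESeq2 called 2 genes of this list lower and 0 higher. The sulfate transporter gene Slc26a2 lay at 67.7 and 60.8 CPM in cKO cells against 126 CPM in control cells and fell by 0.98 ± 0.14 on the log2 scale (SE, adjusted p = 5.09e-05 in edgeR). Papss2 and Papss1, which make the sulfate donor, fell by 0.94 ± 0.14 and 0.49 ± 0.13. Chst1, which sulfates keratan sulfate, rose from 11.1 CPM to 22.5 and 22.6 CPM, or by 1.02 ± 0.21 on the log2 scale (SE, adjusted p = 0.00401 in edgeR), but DESeq2 did not call it.

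The next list held proteases known to cut these proteins or their partners, with Pcolce, an enhancer of procollagen processing. Of its 10 tested genes, 1 fell, against 1.90% of all genes tested, and 9 did not pass (median -0.12). The one was Htra1, a serine protease that cleaves decorin, biglycan and fibromodulin, which fell by 0.54 ± 0.13 on the log2 scale (SE, adjusted p = 0.0186 in edgeR) and which DESeq2 did not call. Adamts5, an aggrecanase that also cuts fibromodulin and biglycan, had a difference of 0.37 ± 0.14 (SE, adjusted p = 0.157 in edgeR). Those of Mmp14, a membrane-bound metalloprotease, and Pcolce were 0.24 ± 0.14 and -0.22 ± 0.15 (adjusted p = 0.478 and 0.555 in edgeR).

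Of 22 tested collagens and crosslinking enzymes that meet these proteins on fibrils, 6 fell, 1 rose and 15 did not pass (median -0.14). Over all genes tested, 1.90% fell and 3.01% rose. Col11a2 and Col9a1 of the cartilage fibril fell to 41.9% and 42.1% of the control, and Col9a2 and Col9a3 to 49.7% and 56.0%. The member that rose, Loxl1, a crosslinking oxidase named here after its value was seen, lay at 161 and 145 CPM in cKO cells against 104 CPM in control cells, and DESeq2 did not call it.

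Of 21 tested growth factors and receptors bound by these proteins, 2 rose, 1 fell and 18 did not pass (median 0.19). Over all genes tested, 3.01% rose and 1.90% fell. Tgfbr3, the betaglycan co-receptor for TGF-beta, lay at 98.3 and 67.4 CPM in cKO cells against 41.7 CPM in control cells and rose by 0.99 ± 0.18 on the log2 scale (SE, adjusted p = 0.00141 in edgeR). Met, a receptor that decorin binds, rose by 0.79 ± 0.17 (SE, adjusted p = 0.00420 in edgeR). Itga1, a collagen-binding integrin chain, fell by 0.80 ± 0.17 (SE, adjusted p = 0.00448 in edgeR). Tgfb2 had a difference of -0.38 ± 0.14 (SE, adjusted p = 0.138 in edgeR). DESeq2 called 1 gene of this list, as higher.

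Most chondrocyte markers fell as well, while most markers of other cell types did not pass. Of 13 tested chondrocyte markers, 11 fell, against 1.90% of all genes tested, and 2 did not pass (median -1.25). Their summed level was 15665 and 14670 CPM in cKO cells against 26518 CPM in control cells. Most of this sum was Col2a1, at 12527, 11984 and 20116 CPM, which did not pass. Of 13 fibroblast and synovium markers, edgeR called 4 higher (Cd55, Thy1, Prg4 and, named after its value was seen, Htra4) and 9 did not pass. Limma-voom called 3 higher and DESeq2 called 1. Over all genes tested, edgeR called 3.01% higher and DESeq2 1.54%. The mean CPM of Htra4 was under 5, so it may have entered the test only through the group where it is high. Nothing is drawn from the Htra4 call. Thy1 lay at 50.02 and 20.2 CPM in cKO cells against 11.2 CPM in control cells, and Cd55 at 19.8, 18.0 and 5.56 CPM. The summed level of this list was 6491 and 5173 CPM in cKO cells against 6619 CPM in control cells, with no listed marker at 0. Of the 13 tested, 9 lay above the control in both cKO libraries, against 36.6% of all genes tested. Another 3 lay below it in both, against 37.4%, and the median log2 fold change was 0.33. The sum therefore does not show the direction of most of these markers. Dcn, Lum, Ogn and Prelp are also made by fibroblasts. The part of these cell types in the results was not tested.

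The other marker lists were as follows. Of 8 tested tendon markers, among them Fmod itself, edgeR, DESeq2 and limma-voom called 0, with 1 at an unadjusted p under 0.05 in edgeR, and their summed level was 2243, 2127 and 2435 CPM. Of 7 osteoblast markers, Ibsp fell (not in DESeq2) and 6 did not pass, with sums of 8999, 8946 and 8316 CPM and Sost at 0. For mural cells 0 of 9 passed in any of the 3 tools, with 2 at an unadjusted p under 0.05, and the sums were 866, 1047 and 864 CPM. In both cKO libraries 6 of the 9 lay above the control and 0 below it (median log2 fold change 0.52). Over all genes tested, 36.6% lay above it in both and 37.4% below it in both. Leukocyte markers summed to 9.23, 8.28 and 4.92 CPM, with Tyrobp, Itgam and Cd3e at 0. Of the 3 leukocyte markers tested, 2 lay above the control in both cKO libraries and 0 below it in both (median log2 fold change 0.83). Each had a mean CPM under 5 and may have entered the test only through the group where it is high. Endothelial markers summed to 30.8, 28.4 and 38.5 CPM, with Cdh5, Emcn and Tie1 at 0. Most of the endothelial sum was Erg, at 27.5, 25.9 and 37.7 CPM. Of the 3 endothelial markers tested, 1 lay above the control in both cKO libraries and 1 below it in both (median log2 fold change 1.17). Apart from Erg, these markers had a mean CPM under 5. They may have entered the test only through the group where they are high, so nothing is drawn from this median. For the leukocyte and the endothelial list alike, 0 of 3 tested passed in any tool and 2 had an unadjusted p under 0.05.

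Prelp had the highest control CPM of the members that passed, and the genes whose 2 differences from the control lay nearest to its own were Myc, Tor1aip2 and N4bp1, at log2 distances of 0.020, 0.025 and 0.027 among 3880 genes whose mean CPM was 50 or more. Myc, a growth-promoting transcription factor, lay at 69.0 and 72.4 CPM in cKO cells against 47.6 CPM in control cells. Such closeness rests on 3 libraries.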

How the data were processed

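Ion Proton libraries were made after ribosomal RNA depletion from RNA whose integrity number exceeded 8, per the labels' protocols. The authors deposited 1 file of raw gene counts by symbol, holding the 3 libraries. The submitters' processing notes name GRCm38 and GRCh37 without a role, and the sources used here do not name the aligner, counter, annotation or strand setting. No row lacked a gene name.

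Counts were analysed with edgeR 4.0.16 in R 4.3.3, using filterByExpr, TMM scaling and the quasi-likelihood F test (legacy off) with Benjamini-Hochberg adjustment over all 15529 genes tested. There is 1 residual degree of freedom, and the estimated prior degrees of freedom were 19.9. The SE was the absolute log2 fold change over the square root of F. Chi-square between the cKO columns averaged 9.06 a gene (16293 genes), so they were kept as 2 libraries. Alternatives were DESeq2 1.42.0, limma 3.58.1 (voom) and other scalings, filters and prior degrees of freedom.

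The members and lists were chosen with earlier results of these data known. The rule for named genes took all members, relatives with counts, genes lying between clustered members, Kdm6b, Xist, Col2a1 and Acan, up to 4 genes of each list with the smallest p (mean CPM 5 or more), and the 3 genes of nearest pattern. Of the list symbols, Adgre1, Pxylp1 and Snorc were not matched, and Cnmd was matched as Lect1.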

Additional observations from a re-analysis of the deposited data

How the results depend on the processing

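The direction of each member's fold change held under every alternative run but for Bgn, whose difference was 0.0033 with column totals in place of TMM (adjusted p = 0.994 in edgeR) and 0.01 without cKO replicate 2. Counting Chad, edgeR called 7 members lower and 1 higher. Against these, column totals and a filter at a mean CPM of 5 or more each gave 3 lower (Dcn, Lum and Epyc) and 0 higher, with 9 and 8 members at an unadjusted p under 0.05 in edgeR. DESeq2 gave 4 lower and 1 higher, and RLE size factors gave 7 lower and 0 higher. With no filter, and with 3 prior degrees of freedom, edgeR gave 0 and 0, with 9 and 8 members at an unadjusted p under 0.05. Limma-voom and edgeR's older quasi-likelihood method, the latter added after seeing the data, kept all 8 calls. Without Chad the lower calls were 6 as reported, with RLE, in limma-voom and with the older method, and the lower calls under the other settings were the same as with it. The relatives and pathway lists together had 17 genes lower and 4 higher, which became 8 and 1 with column totals, 8 and 2 with the CPM filter, 11 and 1 in DESeq2, and 0 and 0 with no filter and with 3 prior degrees of freedom (28 and 26 at an unadjusted p under 0.05 in edgeR). Over all genes 295 were lower and 467 higher. These became 89 and 227 with column totals, 89 and 201 with the CPM filter, 83 and 227 in DESeq2, 4 and 83 with 3 prior degrees of freedom, and 0 and 0 with no filter, where 1829 genes had an unadjusted p under 0.05 in edgeR. The cause of these differences was not tested. Without length scaling, Bgn made up 57.8% and 58.1% of the members' counts (cKO replicates 1 and 2) and 53.5% in the control, and per kilobase of the longest protein-coding transcript, added after seeing the data, 62.8%, 63.3% and 57.0%. Leaving out a cKO library leaves 1 against 1, a value with no test, so no count of calls was made. The log2 fold change of Chad was then -1.87 without cKO replicate 1 and -2.70 without cKO replicate 2, and that of Omd -1.30 and -0.82. No paired analysis was possible because there is 1 control library for the 2 cKO libraries. The control also carries no replicate number in the labels.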
